A study of Bos taurus with 16 samples.

Results

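The 9 genes that respond to stretch and to the YAP/TAZ and SRF pathways in muscle and were followed here were ANKRD1, ANKRD2, ANKRD23, CSRP3, XIRP1, XIRP2, CCN1 (older symbol CYR61), CCN2 (older symbol CTGF) and SRF. They were taken by name, through the NCBI gene IDs of the deposited tables, and are 9 of the 34109 genes listed. All 9 were found and all 9 passed the filter on low counts in every comparison. The RNA came from the round muscle, of the hind leg, and from the sirloin muscle of 8 newborn Hanwoo calves, a Korean beef breed. In the control group 4 cows were fed 100% of their nutritional requirement, and in the treated group 4 cows were overfed at 150% during mid to late pregnancy. The calves were male, had taken no colostrum and were sampled right after birth, so that each muscle and diet had 4 libraries from 4 calves, and the diets were given to the mothers and not to the calves.

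The muscle ankyrin repeat proteins sit beside the spring-like part of titin in the sarcomere, move to the nucleus when muscle is stretched, and are among the genes most readily induced by mechanical load. YAP and TAZ are transcriptional coactivators that enter the nucleus when a cell is stretched or rests on a stiff matrix, where they bind the TEAD factors and switch on genes such as ANKRD1, CCN1 and CCN2. SRF is a transcription factor that switches on cytoskeletal genes with the actin-sensing MRTF cofactors, and immediate early genes with the ternary complex factors.

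The libraries held 44473011 to 72446933 counts, and the 9 genes together took between 0.415% and 2.19% of them, with a median of 0.96%. Markers of skeletal muscle (ACTA1, CKM, MYLPF, TTN, DES, MYH3 and MYH8) summed to between 51300 and 99400 TPM in every library. Of the markers of cardiac muscle, in which several of the 9 genes are also made, NPPA and NPPB were at 0 in all 16 libraries and MYL7 was at 0 in the round libraries. With TNNI3 and MYH6 the cardiac list summed to 65.6 to 139 TPM in control and 69.9 to 563 TPM in treated round libraries, with 3 of the 4 treated libraries above every control, and to 112 to 173 TPM in control and 73.5 to 312 TPM in treated sirloin libraries. Of its 2 genes tested in round muscle 1 was higher in treated calves at an unadjusted p under 0.05 and none passed the adjusted threshold, and its part in the values below was not tested. In bulk muscle, fewer cells of a type and less RNA per cell cannot be told apart. The round library of control replicate 2 stood apart by its fibroblast markers, which summed to 2140 TPM against 268 to 503 TPM in the other round libraries. Values for single libraries are CPM (a share of the counts of the library, put on a common total) after TMM scaling over all 16 libraries. Levels of different genes are compared only in TPM, which corrects for gene length.

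By median TPM over the 16 libraries, CSRP3, the muscle LIM protein of the Z-disc, was the most abundant of the genes at 5710 TPM. ANKRD2 (1200 TPM) and ANKRD23 (1010 TPM) followed, then ANKRD1 (381 TPM), XIRP1 (269 TPM), XIRP2 (212 TPM), CCN1 (67.9 TPM), SRF (52.4 TPM) and CCN2 (10.3 TPM). CSRP3 was above ANKRD2 in 16 of 16 libraries and SRF was above CCN2 in 15 of 16. The other 6 pairs of neighbours in this order differed by less than the SD of their log2 ratio over libraries. ANKRD1 was the least even, with a 133-fold range in TPM between its lowest and highest library. SRF was the most even, with a 1.99-fold range.

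ANKRD1, the cardiac ankyrin repeat protein, was lower on average in treated than in control calves in both muscles. In round muscle the control libraries gave 1590, 1011, 7899 and 5452 CPM and the treated libraries gave 448, 1228, 133 and 148 CPM. In sirloin muscle the control libraries gave 903, 53.5, 151 and 881 CPM and the treated libraries gave 95.6, 312, 82.2 and 99.0 CPM. In round muscle 3 of the 4 treated libraries lay below every control library, and in sirloin muscle the treated libraries lay within the range of the controls. The means in round muscle were 3988 ± 3268 CPM (SD, n = 4) in controls and 489 ± 513 CPM (SD, n = 4) in treated calves, an edgeR log2 fold change of -3.00 ± 0.82 (SE, edgeR adjusted p = 0.864). In sirloin muscle the log2 fold change was -1.76 ± 0.79 (SE, edgeR adjusted p = 0.876). The estimate in round muscle ranged from -4.04 to -2.44 when any calf was left out.

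ANKRD2 and ANKRD23 are the other titin-binding ankyrin repeat proteins, and ANKRD2 is best known from slow fibres. ANKRD2 gave 484, 720, 1054 and 1350 CPM in control and 1215, 899, 970 and 859 CPM in treated round libraries. It gave 1043, 325, 705 and 984 CPM in control and 581, 523, 1074 and 828 CPM in treated sirloin libraries. The diets overlapped in both muscles, and the log2 fold changes were 0.15 ± 0.32 (SE) in round and -0.027 ± 0.36 (SE) in sirloin muscle, the second of which changed sign under several settings.

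ANKRD23 gave 1387, 2108, 1879 and 2125 CPM in control and 1795, 1144, 1275 and 1738 CPM in treated round libraries. In sirloin muscle it gave 1732, 1948, 1926 and 1770 CPM in controls and 1232, 329, 1234 and 1042 CPM in treated calves. All 4 treated sirloin libraries thus lay below all 4 controls, with means of 1844 ± 109 CPM and 959 ± 430 CPM (SD, n = 4 each). The log2 fold change in sirloin muscle was -0.95 ± 0.35 (SE, edgeR adjusted p = 0.876), and it was -0.66 without treated replicate 2, the lowest library. In round muscle the log2 fold change was -0.31 ± 0.27 (SE).

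CSRP3 binds the Z-disc and is linked to the sensing of stretch in heart and skeletal muscle. It gave 5337, 3026, 2952 and 3529 CPM in control and 3085, 3350, 4782 and 897 CPM in treated round libraries. In sirloin muscle it gave 4997, 1222, 2192 and 3765 CPM in controls and 1750, 1515, 3903 and 1746 CPM in treated calves. The diets overlapped in both muscles, with log2 fold changes of -0.27 ± 0.43 (SE) in round and -0.45 ± 0.44 (SE) in sirloin muscle.

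XIRP1 and XIRP2 are Xin repeat proteins that bind actin at the myotendinous junction and at sites of fibre damage and remodelling. XIRP1 gave 5116, 716, 4954 and 3265 CPM in control and 459, 1104, 1290 and 406 CPM in treated round libraries. It gave 4258, 150, 820 and 1702 CPM in control and 303, 632, 1119 and 244 CPM in treated sirloin libraries. In both muscles control replicate 2 was the lowest control, within the treated range in round and below it in sirloin muscle, and the other 3 controls were above every treated library in round muscle. The round means were 3513 ± 2044 CPM in controls and 815 ± 449 CPM in treated calves (SD, n = 4 each), with a log2 fold change of -2.09 ± 0.58 (SE, edgeR adjusted p = 0.864). With 1 calf left out this value ranged from -2.47 (without control replicate 2, edgeR adjusted p = 0.229) to -1.85 (without control replicate 1, edgeR adjusted p = 0.788). Of the 9 genes, XIRP1 in round muscle came nearest to the threshold with DESeq2, at an adjusted p of 0.0517. In sirloin muscle the log2 fold change was -1.59 ± 0.80 (SE, edgeR adjusted p = 0.876), and it was -0.63 without control replicate 1.

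XIRP2 gave 1829, 1824, 4675 and 2405 CPM in control and 1687, 2043, 1235 and 674 CPM in treated round libraries. It gave 2837, 746, 1787 and 1382 CPM in control and 1152, 299, 1270 and 487 CPM in treated sirloin libraries. In round muscle 3 treated libraries lay below every control, and the log2 fold change was -0.90 ± 0.41 (SE, edgeR adjusted p = 0.864). Without control replicate 3, the highest library, this value was -0.49. In sirloin muscle the log2 fold change was -1.07 ± 0.50 (SE, edgeR adjusted p = 0.876).

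CCN1 and CCN2 are secreted matricellular proteins and standard readouts of YAP/TAZ activity. CCN1 gave 119, 134, 81.2 and 51.5 CPM in control and 36.0, 81.7, 81.1 and 369 CPM in treated round libraries. It gave 45.1, 48.6, 137 and 26.5 CPM in control and 43.7, 71.6, 79.4 and 290 CPM in treated sirloin libraries. Treated replicate 4 held the highest value in both muscles, and the other treated libraries lay within or below the control range. The log2 fold changes of 0.57 ± 0.59 (SE) in round and 0.89 ± 0.62 (SE) in sirloin muscle became -0.55 and 0.016 without this calf.

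CCN2 gave 24.2, 89.0, 38.8 and 27.6 CPM in control and 14.7, 8.81, 57.9 and 26.7 CPM in treated round libraries. In sirloin muscle it gave 13.3, 12.2, 14.8 and 13.0 CPM in controls and 6.29, 4.96, 11.7 and 20.0 CPM in treated calves. The 4 sirloin controls were close together, at 13.3 ± 1.07 CPM (SD, n = 4), and treated libraries lay on both sides of them. The log2 fold changes between the diets were -0.72 ± 0.56 (SE) in round and -0.32 ± 0.38 (SE) in sirloin muscle. With 1 calf left out they ranged from -1.40 (without treated replicate 3) to -0.18 (without control replicate 2) in round muscle, and from -0.79 (without treated replicate 4) to -0.086 (without treated replicate 2) in sirloin muscle.

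SRF gave 61.0, 81.4, 87.5 and 94.9 CPM in control and 102, 89.4, 77.1 and 71.0 CPM in treated round libraries. In sirloin muscle it gave 118, 77.9, 83.8 and 103 CPM in controls and 61.0, 86.5, 78.6 and 56.3 CPM in treated calves. The diets overlapped in both muscles, with log2 fold changes of 0.088 ± 0.23 (SE) in round and -0.44 ± 0.22 (SE) in sirloin muscle.

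**Figure D1:**
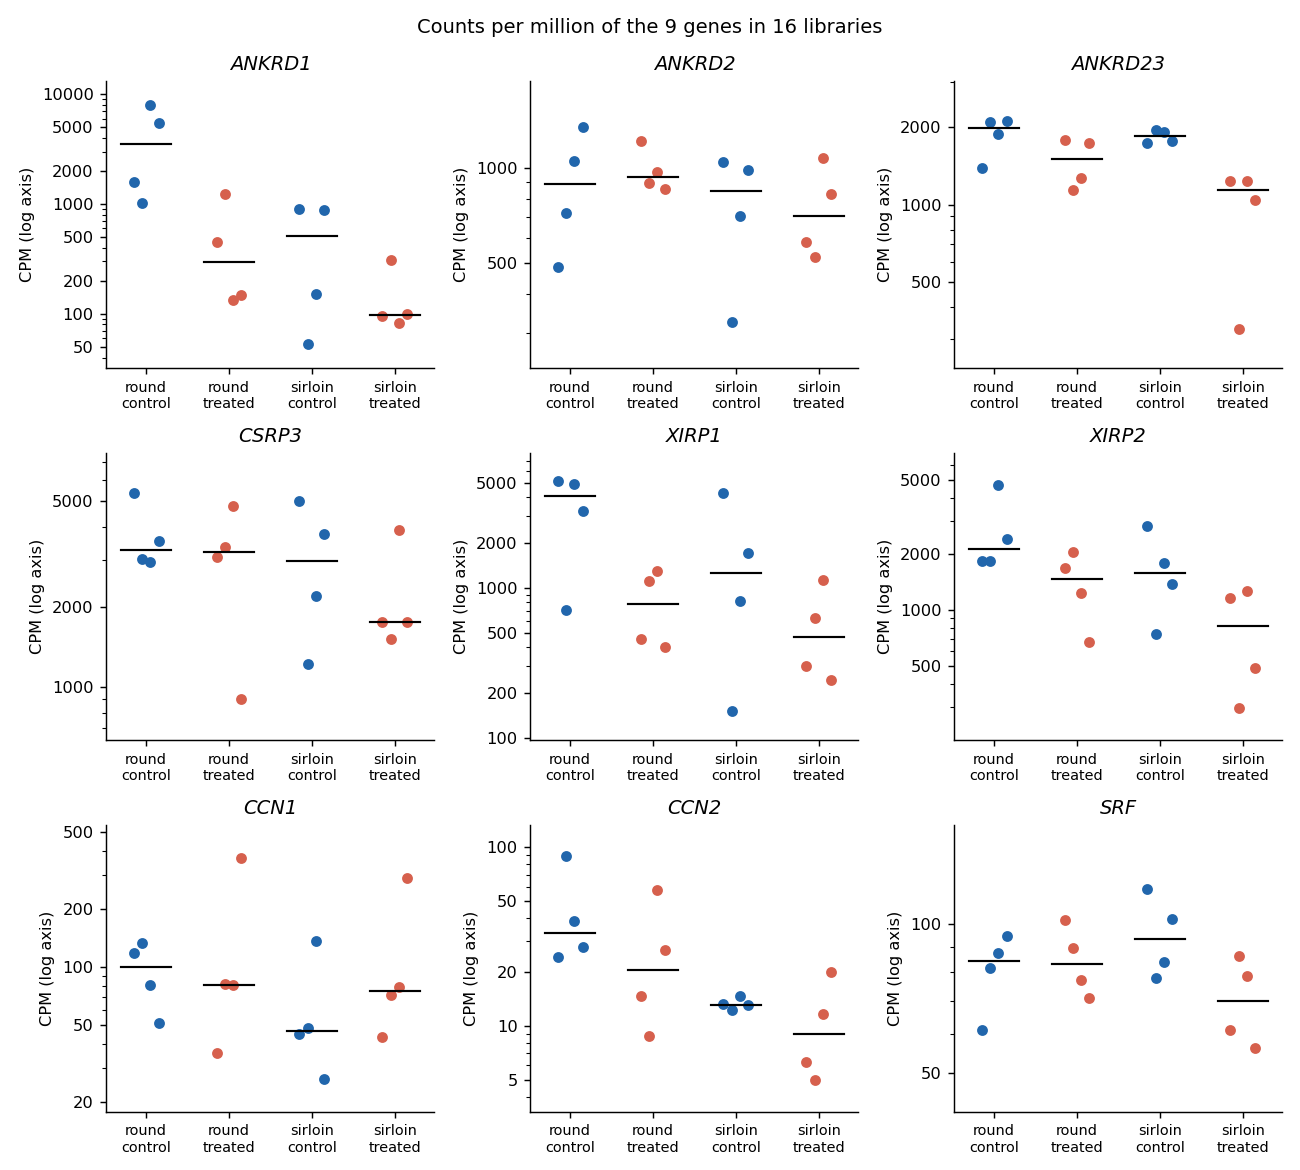
CPM of each of the 9 genes (log axis, a different range in each panel) in the round and sirloin libraries of control (blue) and treated (red) calves, 1 point per calf and a bar at the median of 4. ANKRD1 and XIRP1 had medians of 3521 and 4109 CPM in control round muscle against 298 and 782 CPM in treated round muscle, with some overlap of the points, and CCN1 shows 1 high treated calf in each muscle.

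Counted over the 9 genes, no difference between the diets passed the adjusted threshold of 0.05 in either muscle. In round muscle edgeR, DESeq2 and limma-voom each called 0 of 9, where they called 0.0185%, 0.212% and 0.00461% of all 21677 genes tested. At an unadjusted p under 0.05, edgeR gave 3 of 9 genes (ANKRD1, XIRP1 and XIRP2), all lower in treated calves, against 2.49% of all genes in that direction. None of the 9 had diets that did not overlap in round muscle, and 1.76% of all genes did. In sirloin muscle the 3 tools again called 0 of 9, where they called 0.00918%, 0.0597% and 0% of all 21776 genes tested. At an unadjusted p under 0.05, edgeR gave 2 of 9 genes (ANKRD1 and ANKRD23), both lower in treated calves, against 1.62% of all genes in that direction. For ANKRD1 this p was 0.0477 with edgeR, 0.0139 with DESeq2 and 0.2 with limma-voom. ANKRD23 was the only one of the 9 whose diets did not overlap in sirloin muscle, against 1.68% of all genes in either direction and 0.822% with treated below control.

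The median log2 fold change of the 9 genes between the diets was -0.31 in round muscle, where that of all genes tested was 0.023, and -0.45 in sirloin muscle, where that of all genes tested was 0.029. The estimate was negative for 6 of 9 genes in round and for 8 of 9 in sirloin muscle. This was not particular to the 9 genes. In sirloin muscle it was negative for 17 of 19 Z-disc and I-band partner genes (median -0.473) and for all 7 skeletal muscle markers (median -0.235). In round muscle it was negative for 18 of 21 SRF cofactors and cytoskeletal SRF targets (median -0.355). There it was negative for 13 of 19 Z-disc and I-band partners (median -0.1) and 3 of 7 skeletal muscle markers (median 0.0605). The summed levels of markers of other cells are given beside these values. Markers of red blood cells (HBB, HBA, HBA1, ALAS2, SLC4A1 and AHSP) summed to 3.88 to 18.8 TPM in control and 13.4 to 36.6 TPM in treated round libraries, and to 3.84 to 14.5 TPM in control and 13.0 to 36.0 TPM in treated sirloin libraries. Of the 5 of these markers tested, 2 were higher in treated calves at an unadjusted p under 0.05 in each muscle, none passed the adjusted threshold, and SLC4A1 was at 0 in all libraries. The tendon markers (SCX, TNMD, MKX and THBS4) summed to 109 TPM in the round library of control replicate 2 and to 16.2 to 25.1 TPM in the other 3 control round libraries. They summed to 16.2 to 39.5 TPM in the treated round libraries, where TNMD was at 0. The medians of the sum were 21.2 TPM in control and 32.6 TPM in treated round libraries. By fold change, however, all 4 tendon markers were lower in treated calves in each muscle, with a median log2 fold change of -1.38 in round and -0.776 in sirloin muscle. In round muscle 1 of them had an unadjusted p under 0.05 with edgeR, and none passed the adjusted threshold in either muscle. Macrophage markers (CD68, CD163, CSF1R, C1QA and C1QB) summed to 6.9 to 16.4 TPM in control and 9.28 to 92.7 TPM in treated sirloin libraries, with 2 of 5 higher in treated calves at an unadjusted p under 0.05 and none past the adjusted threshold. Fibroblast markers were lower in treated calves for 5 of 6 in round muscle (median log2 fold change -0.921). They were higher for 4 of 6 in sirloin muscle (median 0.34), 1 of them at an unadjusted p under 0.05 with edgeR. All 3 satellite cell and myoblast markers tested were lower in treated calves in each muscle, with medians of -0.413 in round and -0.766 in sirloin muscle. None of these markers passed the adjusted threshold. The part of these cells in the differences of the 9 genes was not tested.

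**Figure D2:**
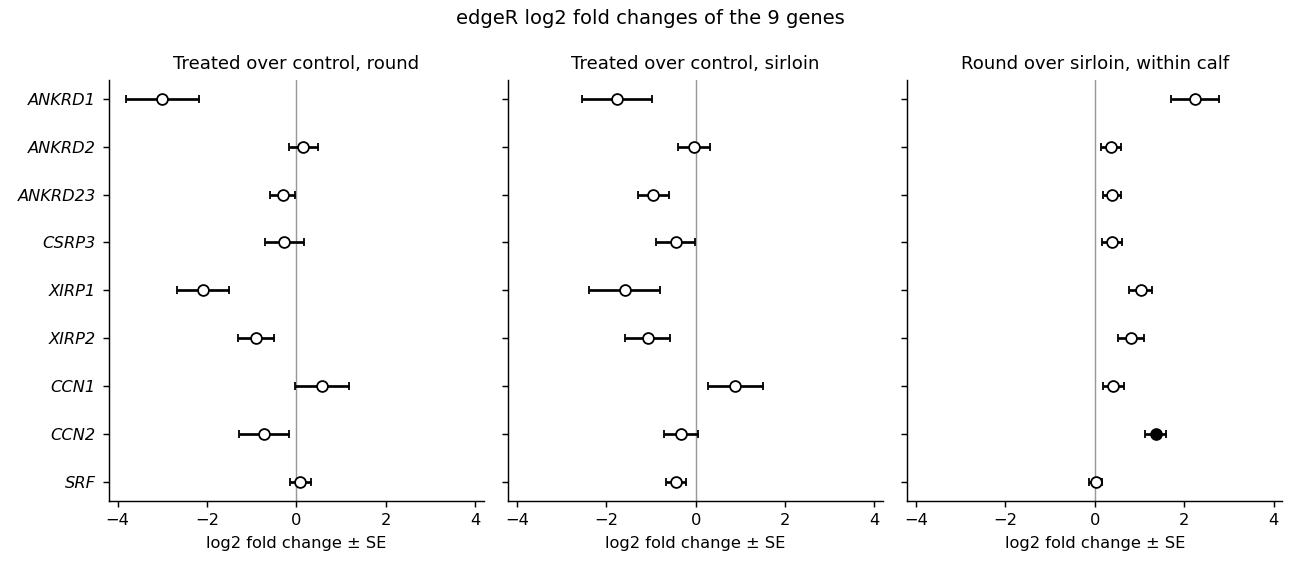
edgeR log2 fold changes (horizontal axis, points with bars of 1 SE) of the 9 genes for treated over control in round muscle, treated over control in sirloin muscle, and round over sirloin muscle within calf. Filled points passed an adjusted p of 0.05, which only CCN2 in the comparison of the muscles did, with a log2 fold change of 1.36 ± 0.24.

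The muscles were then compared within calf, with the calf as a block over all 16 libraries. CCN2 was higher in round than in sirloin muscle in 8 of 8 calves, by 1.82-, 7.31-, 2.63- and 2.12-fold in control replicates 1 to 4 and by 2.33-, 1.77-, 4.95- and 1.34-fold in treated replicates 1 to 4. The edgeR log2 fold change was 1.36 ± 0.24 (SE, edgeR adjusted p = 0.0247), a 2.58-fold difference, and CCN2 was the only one of the 9 that passed the adjusted threshold. Leaving out control replicate 3, control replicate 4 or treated replicate 1 moved its adjusted p to 0.0748, 0.07 and 0.0786, and the fit without the calf as a block gave 0.293. The sum of the fibroblast markers (COL1A1, COL1A2, COL3A1, PDGFRA, DCN and LUM) was higher in round muscle in 7 of 8 calves. The exception was treated replicate 4, at 503 TPM in round and 740 TPM in sirloin muscle. Their median log2 fold change was 0.87, with 4 of 6 higher in round muscle at an unadjusted p under 0.05 and none past the adjusted threshold. Sums were also higher in round muscle in 7 of 8 calves for satellite cell and myoblast markers, in 6 of 8 for endothelial and macrophage markers, and in 3 to 5 of 8 for the other lists. The part of any of these cells in the difference of CCN2 was not tested. Without control replicate 2, which had the highest fibroblast sum and the highest CCN2 level, the log2 fold change of CCN2 was 1.16 (edgeR adjusted p = 0.0288). This does not test the part of fibroblasts, since the other calves with a higher fibroblast sum in round muscle stayed in the fit.

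ANKRD1 was also higher in round muscle in 8 of 8 calves, by 1.76-, 18.9-, 52.2- and 6.19-fold in the control calves and by 4.69-, 3.93-, 1.62- and 1.5-fold in the treated calves. Its log2 fold change of 2.24 ± 0.53 (SE) had an adjusted p of 0.0896 with edgeR and 0.00307 with DESeq2. XIRP1 was higher in round muscle in 8 of 8 calves as well, by 1.15- to 6.04-fold, with a log2 fold change of 1.03 ± 0.26 (SE) and an adjusted p of 0.112 with edgeR and 0.0023 with DESeq2. XIRP2 was higher in round muscle in 6 of 8 calves, at a log2 fold change of 0.81 ± 0.30 (SE, edgeR adjusted p = 0.295). The remaining 5 genes had log2 fold changes between 0.022 for SRF and 0.42 for CCN1, with edgeR adjusted p between 0.534 and 0.98.

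edgeR called 1 of the 9 genes higher in round muscle, where it called 0.267% of all 22877 genes tested in that direction. limma-voom also called 1 of 9 (CCN2), against 0.24% of all genes, and DESeq2 called 3 of 9 (CCN2, XIRP1 and ANKRD1), against 1.84%. At an unadjusted p under 0.05, edgeR gave 4 of 9 genes higher in round muscle, against 5.45% of all genes, and 3 of 9 were higher in round muscle in all 8 calves, against 1.15% of all genes. The estimate was positive for all 9 genes in the edgeR fit, and their median was 0.42, where that of all genes tested was -0.0041. For SRF the sign turned on the TPM scale and when a calf was left out.

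**Figure D3:**
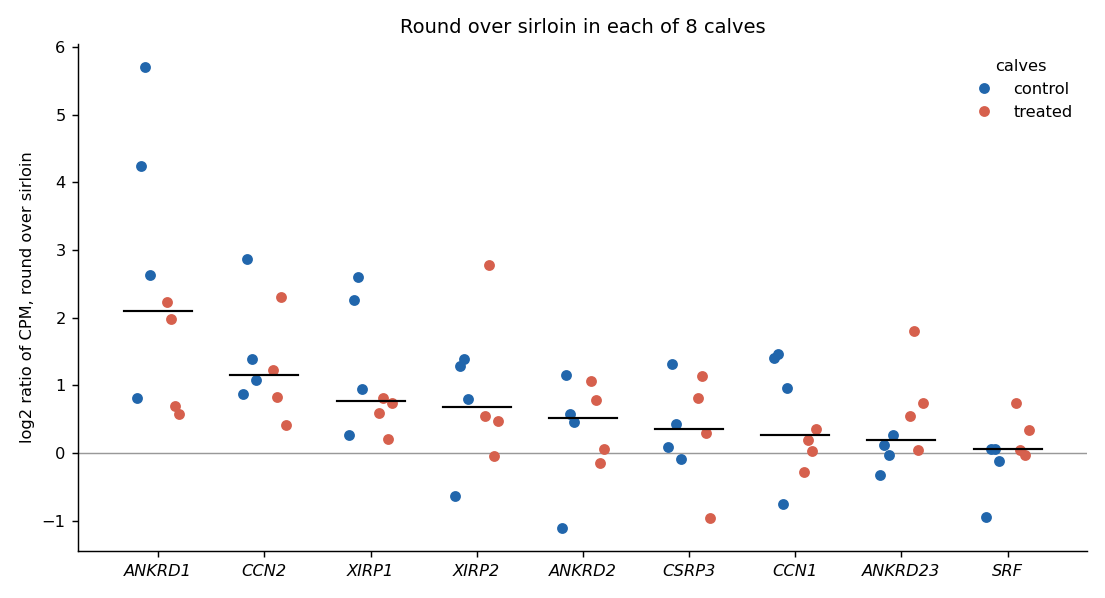
log2 ratio of CPM in round over sirloin muscle (vertical axis) for each of the 9 genes, with 1 point per control (blue) or treated (red) calf and a bar at the median of 8. ANKRD1, CCN2 and XIRP1 lie above 0 in all 8 calves, with medians of 2.1, 1.15 and 0.77, and the ratio of ANKRD1 spans 0.58 to 5.7.

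Whether the difference between the diets itself differed between the muscles was tested by an interaction term with the calf as a block. ANKRD1 had a mean log2 ratio of round over sirloin muscle of 3.35 in control and 1.37 in treated calves, and ANKRD23 of 0.0052 in control and 0.78 in treated calves. The interaction was -2.00 ± 0.89 (SE, edgeR adjusted p = 1) for ANKRD1 and 0.77 ± 0.34 (SE, edgeR adjusted p = 1) for ANKRD23. These were the 2 of 9 genes with an unadjusted p under 0.05, against 3.78% of all genes. edgeR, DESeq2 and limma-voom called 0 of 9, and 0.00437%, 0.0219% and 0.00437% of all genes. An interaction of ANKRD1 was thus not shown, and the estimate was -1.18 without control replicate 3.

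The levels of a gene in the round and sirloin muscle of the same calf were set against each other over 8 calves, for 9 genes in all. Pearson's r of log2 CPM ranged from -0.27 for SRF to 0.83 for XIRP1. For XIRP1, r was 0.833 (exact permutation p = 0.0113, adjusted p = 0.0988) and Spearman's rho was 0.857 (exact permutation p = 0.0107, adjusted p = 0.0964). Pearson's r of XIRP1 was 0.857 without the 2 calves farthest from the median of round muscle and 0.89 after the mean of each diet and muscle was removed. None of the 9 genes passed the adjusted threshold. For ANKRD23 and CCN1, r was 0.704 and 0.714, and 0.256 and 0.167 without the 2 calves farthest from the median of round muscle. It was 0.543 and 0.754 after the group means were removed, and Spearman's rho was 0.738 and 0.548. Leaving out the farthest calves also narrows the range of values, so the drop in r does not show that the relation rested on them. For SRF, r moved from -0.27 to 0.937 when the farthest calves were left out.

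The 9 genes did not vary as 1 unit. After the mean of each diet and muscle was removed, the highest correlations of log2 CPM over the 16 libraries were 0.735 between CSRP3 and XIRP1, 0.715 between ANKRD1 and SRF, 0.65 between ANKRD1 and XIRP1, and 0.62 between ANKRD2 and SRF. CCN1 and CCN2 correlated with each other at 0.459, and against the others CCN1 was negative with ANKRD1 (-0.44), CSRP3 (-0.453) and SRF (-0.59). ANKRD23 was negative with ANKRD1 (-0.348) and XIRP1 (-0.288). These values are a description, since the 16 points come from 8 calves and share their libraries.

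**Figure D4:**
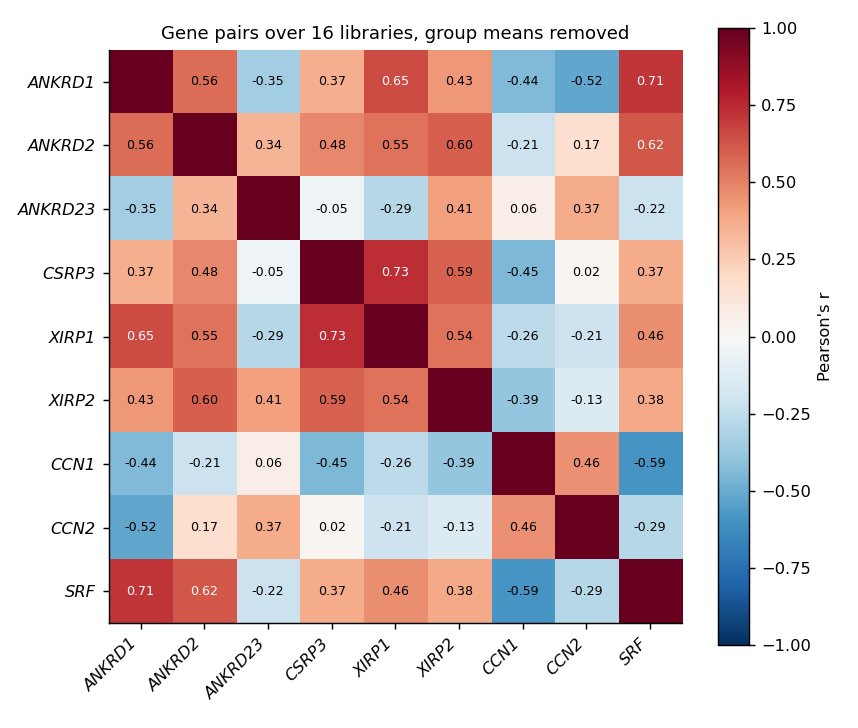
Pearson's r of log2 CPM between each pair of the 9 genes over 16 libraries after group means were removed (red positive, blue negative, colour scale from -1 to 1). The picture shows ANKRD1, ANKRD2, CSRP3, XIRP1, XIRP2 and SRF positive with each other, and CCN1 negative with each of them.

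Among 12315 genes with a mean CPM of at least 1, the pattern most like ANKRD1 on the same measure was that of RRAD (r = 0.892), a small GTPase of striated muscle, followed by TRIM36 (0.871). The values of r in this paragraph are the highest picked from 12315 genes. A search of that size over 16 libraries gives high values for any gene, and how high without a relation was not computed. They are only a description. RRAD gave 106, 94.6, 225 and 251 CPM in control and 55.8, 245, 53.6 and 32.2 CPM in treated round libraries, so that treated replicate 2 was high for both genes. Close to XIRP1 was DUSP16 (0.956), to CSRP3 ACTR1B (0.931) and ROS1 (0.9), and to XIRP2 LOC112449110 (0.929) and ADPRHL1 (0.847). The closest to ANKRD2 were NEXN (0.868), an actin-binding protein of the Z-disc, and DTNA (0.868), and to ANKRD23 CCDC121 (0.918) and LOC100336448 (0.91). The closest to CCN2 were CC2D2B (0.895) and IL27RA (0.894), and to SRF KDM5C (0.874) and DLK2 (0.869). The closest to CCN1 were FOS (0.891), an immediate early gene driven by SRF, and ATL3 (0.891). FOS gave 4.43, 26.8, 49.0 and 379 CPM in the treated round libraries and 33.9, 66.6, 29.7 and 436 CPM in the treated sirloin libraries, with treated replicate 4 highest as for CCN1.

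The other genes of these pathways were taken as 6 lists of 96 genes, of which 95 were found and tested. Between the diets none of the 95 passed the adjusted threshold with edgeR in either muscle, where 0.0185% of all genes did in round and 0.00918% in sirloin muscle. DESeq2 called 1 of the 95 (CNN1) in round muscle and 0 in sirloin muscle, against 0.212% and 0.0597% of all genes. limma-voom called 0 of the 95 in each muscle, against 0.00461% and 0% of all genes. In round muscle 1 was higher and 12 were lower in treated calves at an unadjusted p under 0.05, against 1.92% and 2.49% of all genes, and the median log2 fold change was -0.20 against 0.023. In sirloin muscle 1 was higher and 5 were lower, against 2.3% and 1.62% of all genes, and the median was -0.25 against 0.029. The smallest p among them was that of CNN1, calponin, an actin-binding SRF target. CNN1 gave 44.0, 40.9, 44.1 and 44.8 CPM in control and 15.7, 8.79, 18.0 and 7.98 CPM in treated round libraries, without overlap, at a log2 fold change of -1.76 ± 0.29 (SE, edgeR adjusted p = 0.196, DESeq2 adjusted p = 4.37e-05).

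By list, the smallest p in round muscle belonged to TEAD2, a DNA-binding partner of YAP (log2 fold change 0.70), AXL, a receptor kinase and YAP target (-1.32), EGR2, an immediate early factor (-1.33), FLNC, a filamin of the Z-disc (-1.19), and CCN3, a relative of CCN2 (-1.16), each with an adjusted p of 0.864. In sirloin muscle it belonged to VGLL2, a TEAD cofactor (-2.17), AXL (-0.39), ABRA, an activator of MRTF (-1.83), FOS (2.54), MYOT, myotilin of the Z-disc (-0.65), and CCN3 (-0.70), each with an adjusted p of 0.876. ABRA was also lower in treated calves in round muscle, at -2.2 (edgeR unadjusted p = 0.00444, against 0.0594 in sirloin muscle). It is not named there by the rule because CNN1, of the same list, had the smaller p. None of the 95 passed for the interaction with edgeR, DESeq2 or limma-voom, where the smallest p by list belonged to AMOT (1.14), GADD45A (-0.93), TPM4 (-0.91), FOS (-2.19), TCAP (0.71) and CSRP2 (-0.98), each with an adjusted p of 1.

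Between the muscles, 6 of the 95 genes passed the adjusted threshold with edgeR, all higher in round muscle, where 0.267% of all genes tested did in that direction. DESeq2 called 23 higher, against 1.84% of all genes, and 2 lower, where it called 822 of all 22877 genes in either direction. limma-voom called 5 higher, against 0.24% of all genes. At an unadjusted p under 0.05 there were 35 higher and 3 lower with edgeR, against 5.45% and 5.78% of all genes. The median log2 fold change was 0.26, where that of all genes was -0.0041. The list of SRF cofactors and cytoskeletal SRF targets had 4 of 21 genes called, 15 of 21 higher at an unadjusted p under 0.05, and a median of 0.70. Its called genes were ABRA (log2 fold change 1.23 ± 0.20 SE, adjusted p = 0.0182, 7 of 8 calves), TAGLN, transgelin of smooth muscle (0.70 ± 0.12 SE, adjusted p = 0.0182, 8 of 8 calves), ACTA2, smooth muscle actin (0.69 ± 0.13 SE, adjusted p = 0.0423, 8 of 8 calves), and MRTFA, which was outside the naming rule and is named after its value was seen. This count ranged from 0 to 12 when 1 calf was left out, being 12 without treated replicate 4, 2 without control replicate 1 or treated replicate 3, 1 (ABRA) without control replicate 2, and 0 without control replicate 3, control replicate 4 or treated replicate 1. It was 14 with DESeq2 and 0 with no replicate block. Smooth muscle markers (MYH11, LMOD1, MYLK, KCNMB1 and RGS5) were higher in round muscle by sum in 5 of 8 calves, with a median log2 fold change of 0.34 and 1 of 5 at an unadjusted p under 0.05. The part of smooth muscle cells and fibroblasts in these differences was not tested.

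Of the Z-disc and I-band partners, edgeR called 2 of 19 higher in round muscle, against 0.267% of all genes in that direction. These were CRYAB, a small heat shock protein that binds titin and desmin (1.34 ± 0.26 SE, adjusted p = 0.0398), and MYOZ3, a calsarcin (0.66 ± 0.11 SE, adjusted p = 0.0222). Each was higher in round muscle in 8 of 8 calves. With 1 calf left out the count was 3 without control replicate 1, 1 without control replicate 3, and 0 without control replicate 2, control replicate 4, treated replicate 1 or treated replicate 3. It was 4 with DESeq2, 0 on log2(TPM + 1) and 0 with no replicate block. edgeR called none of the YAP/TAZ regulators and TEAD partners, other YAP/TAZ targets, ternary complex factors with immediate early genes, or family relatives. In these lists DESeq2 called 2 of 20 (TEAD2 and TEAD4), 2 of 17 (CRIM1 and FJX1), 1 of 12 (ELK1) and 2 of 6 (CCN3 and CSRP1). TEAD2 and ELK1 were lower in round muscle and the others higher. DESeq2 called 822 of all 22877 genes in either direction, and 1.84% higher in round muscle. CRIM1 and CSRP1 are named after their values were seen. Without control replicate 1 edgeR called 1 of the regulators, and without treated replicate 4 it called 2, 1 and 2 in the other 3 lists. Their medians were 0.026, 0.25, 0.21 and 0.72, and the smallest p belonged to TEAD4 (0.62, adjusted p = 0.103), FJX1 (1.03, adjusted p = 0.0891), ELK1 (-0.88, adjusted p = 0.185) and CCN3 (0.94, adjusted p = 0.103). CCN3 was, like CCN2, higher in round muscle in 8 of 8 calves.

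**Figure D5:**
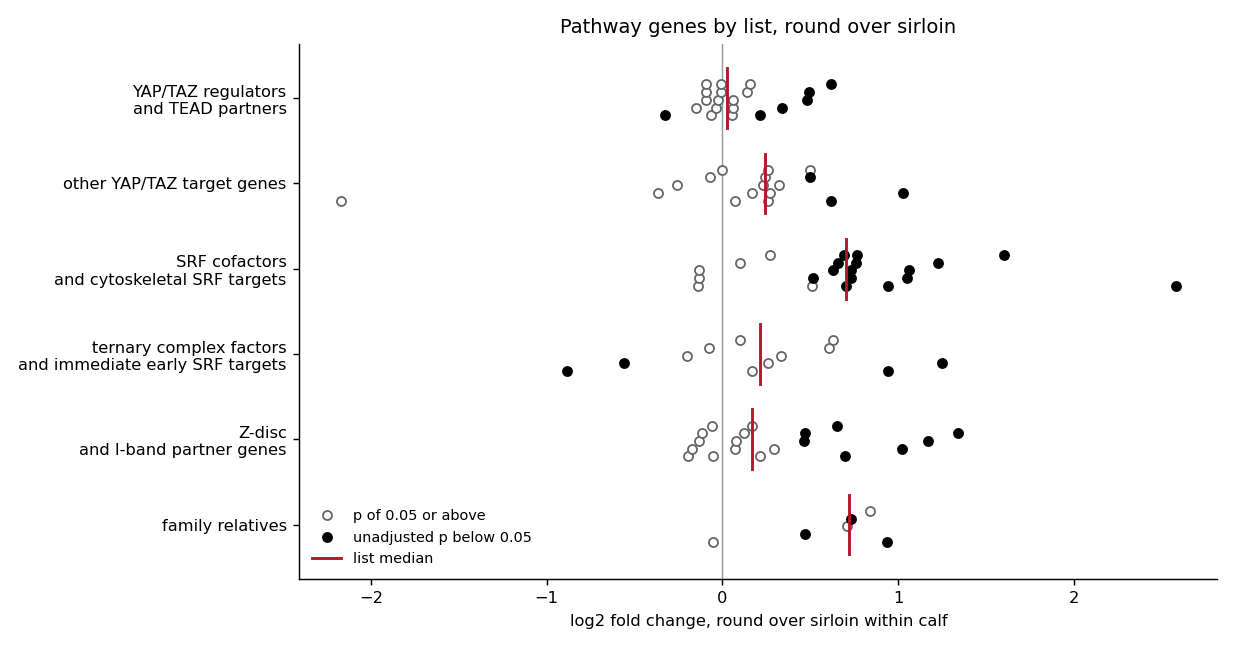
log2 fold change of round over sirloin muscle within calf (horizontal axis) for the 95 genes of the 6 pathway lists, 1 point per gene, filled where the unadjusted p was below 0.05, with a red bar at the list median. The SRF cofactors and cytoskeletal targets, with a median of 0.70 and 15 of 21 filled points to the right of 0, lie farther right than the YAP/TAZ regulators, with a median of 0.026.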

How the data were processed

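RNA-seq of 16 libraries (round and sirloin muscle of 8 calves) was analysed. The authors deposited raw read counts for 34109 genes and normalized values that were used as TPM, since they sum to between 999756 and 1000000 in each library. Per the labels, poly(A) RNA was sequenced and Trimmomatic, STAR, featureCounts, DESeq2 and the build ARS-UCD1.2 were used, while the study's methods name a ribosomal RNA and globin depletion kit, HISAT2, Bowtie2 and StringTie. Which of these made the counts could not be settled, so it is unknown whether reads were counted by strand. The deposited tables of the authors' fold changes and p-values were not used. Gene IDs were paired with symbols through a RefSeq table of another build, with symbols for 30762 IDs (90.2%), so no coordinates are given. FHL1 and PAX7 were not matched and are not analysed here.

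Counts were tested with edgeR 4.0.16 (TMM factors, glmQLFit and glmQLFTest, two-sided) in R 4.3.3, on every gene with 1 or more counts in any library of the fit, with Benjamini-Hochberg adjustment over all of them and a threshold of 0.05. The SE is the log2 fold change divided by the square root of F. Diets were compared within each muscle without covariates, and muscles with the calf as a block. The round and sirloin libraries of a calf carry the same number in the labels, and their deviations from the group means correlated at 0.311 to 0.765. DESeq2 1.42.0, limma-voom (limma 3.58.1), RLE factors, filterByExpr, limma on log2(TPM + 1) and log2(TPM + 0.1) for genes with a TPM of at least 0.1 in 4 libraries, limma on log2(TPM + 1) without that filter, other blocks and leaving out each calf were tried as alternatives. The fits were also run on simulated counts with known changes, as a check of the code. These counts were drawn with the dispersion capped at 0.1 and without differences between calves. They therefore do not show how the tests perform at the spread between calves seen here. log2 CPM used a prior count of 2.

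The 9 genes, the pathway lists and the markers were chosen with earlier results of these data known. Named besides the 9 genes are, for each list and comparison, at most 3 genes past the threshold with the largest change, or else the gene with the smallest p, and the 2 genes most like each of the 9. A gene most like XIRP1 is not reported here. Each library is 1 calf and muscle, and p-values of the diet comparisons within a muscle measure the spread between calves. With the calf as a block, p-values measure how the difference between the muscles varies from calf to calf. Fits of both muscles together without the calf block treated both libraries of a calf as independent.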

Additional observations from a re-analysis of the deposited data

Results flagged for a closer look

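In each of the 36 groups of 4 libraries (9 genes, both muscles, both diets) the highest and lowest CPM were compared with the rest, and 4 libraries lay farther out than Dixon's critical value for 4 values (95%), where chance flags about 1 in 20 groups. CCN1 was high in treated replicate 4 in both muscles of the same calf, at 369 CPM against 36.0 to 81.7 CPM in round (gap of 0.863 of the range) and at 290 CPM against 43.7 to 79.4 CPM in sirloin muscle (0.855). ANKRD1 was high in the sirloin library of treated replicate 2, at 312 CPM against 82.2 to 99.0 CPM (0.927). CSRP3 was high in the sirloin library of treated replicate 3, at 3903 CPM against 1515 to 1750 CPM (0.901).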

How the results depend on the processing

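With 4 calves per diet, a called difference needed to be large against the spread between calves. The count of genes called between the diets (0 of 9 in each muscle) and for the interaction (0 of 9) was the same under every setting run. The counts between the diets at an unadjusted p under 0.05 were not. In round muscle the 3 of 9 became 2 with filterByExpr and on each TPM scale. It also became 2 with the replicate block and with the 4 groups in 1 fit. In sirloin muscle the 2 of 9 became 3 with DESeq2, and 1 with filterByExpr and on each TPM scale. The count of 1 of 9 called between the muscles was 3 with DESeq2, 0 with log2(TPM + 1), filtered or not, and 0 with no replicate block, and between 0 and 2 when 1 calf was left out. It was 2, CCN2 and ANKRD1, without treated replicate 4. The adjusted p of CCN2 ranged from 2.59e-06 to 0.293 over these settings. DESeq2 called 822 of all genes between the muscles where edgeR called 122, and the fit without the calf block called 14.

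Replicate numbers did not pair control with treated calves (correlations of -0.0436 to 0.29 in round and -0.28 to 0.274 in sirloin muscle). With the number as a replicate block, edgeR called 0 of 9 genes in each muscle, and 2 and 0 of all genes against 4 and 2.

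Some directions turned. ANKRD2 between diets in sirloin muscle was 0.055 with limma-voom, 0.226 on each TPM scale and 0.0495 with the replicate block. SRF between muscles was -0.0602 on log2(TPM + 1) and -0.0612 on log2(TPM + 0.1). CSRP3 in the interaction was 0.157 with no replicate block. With 1 calf left out, log2 fold changes in round muscle ranged from -0.0559 to 0.415 for ANKRD2, -0.6 to 0.00399 for CSRP3, -0.545 to 0.892 for CCN1 and -0.0271 to 0.174 for SRF. In sirloin muscle ANKRD2 ranged from -0.287 to 0.161, and between muscles SRF ranged from -0.0806 to 0.162. In the interaction ANKRD2 ranged from -0.278 to 0.459, CSRP3 from -0.373 to 0.308, XIRP2 from -0.402 to 0.519 and CCN2 from -0.707 to 0.0869. The cause was not tested.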

Other observations

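The calf with the high CCN1 level, treated replicate 4, also stood high for some of the 12 ternary complex factors and immediate early SRF targets. It held the highest CPM of the 8 libraries of a muscle for 5 of 12 in round and 8 of 12 in sirloin muscle. This count was made after the values of CCN1 and FOS were seen. The share of all genes for which these libraries were highest was not computed, so the count cannot be set against it and is only a description. In sirloin muscle FOS was at 436 CPM against a median of 31.8 CPM, FOSB at 164 CPM against 3.51 CPM, EGR1 at 237 CPM against 17.6 CPM and IER2 at 43.2 CPM against 6.06 CPM. In round muscle FOS was at 379 CPM against 47.3 CPM and FOSB at 106 CPM against 7.83 CPM, while EGR1 at 128 CPM was second to control replicate 1 at 153 CPM.

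Control replicate 2 had the highest CCN2 level of all 16 libraries (89.0 CPM in round muscle) and the lowest control levels of ANKRD1 and XIRP1 in both muscles. Its difference was not confined to these genes. It had the highest total count in round (72446933) and in sirloin muscle (72165291), and only its TPM values summed to 1000000. The paper describes its round control sample C2 as an outlier over all genes. These genes are also a selection, since control replicate 1 was the lowest round control for ANKRD2 (484 CPM), ANKRD23 (1387 CPM) and SRF (61.0 CPM). ABRA was also lowest in this calf among the controls, at 20.6 CPM in round and 6.86 CPM in sirloin muscle against 105 to 237 CPM and 25.8 to 118 CPM in the other 3.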
